A study of Mus musculus with 6 samples.

Results

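Rab GTPases are small membrane-bound switches that direct the budding, transport, tethering and fusion of vesicles. The transcripts of these genes were followed in 3T3-CrT cells, with and without creatine (Cr). Members were the probes of the array whose gene symbol is Rab followed by a digit, leaving out symbols that contain gap or ggt, with a detection p no higher than 0.05 on 1 or more of 6 arrays. The detection p is the scanner software's comparison of a probe with that array's negative controls. This gave 87 probes of 51 genes, among 20308 probes and 10585 named genes that met the same detection limit, of 45281 probes on the array. The 51 genes were 44 Rab GTPases with 76 probes, 5 genes of proteins that bind a Rab (Rab11fip2, Rab11fip3, Rab11fip5, Rab3il1 and Rab3ip) with 8 probes, and Rab5if and Rab26os with 3 probes.

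A Rab protein cycles between a GDP-bound form, held in the cytosol by a dissociation inhibitor, and a GTP-bound form on a membrane, where it recruits effectors such as motors and tethers. Exchange factors load GTP and GTPase-activating proteins return the Rab to the GDP form, and prenyl groups added by a geranylgeranyl transferase anchor it. Each Rab marks its own compartments, and carriers in the plasma membrane are delivered, taken up, recycled and degraded along routes that Rabs define. In fat and muscle cells, for example, Rab10, Rab8a, Rab13 and Rab14 are known from the delivery of a glucose transporter to the cell surface.

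3T3-CrT cells are 3T3 Tet Off mouse fibroblasts that stably express a rabbit creatine transporter (CrT) cDNA carrying a hemagglutinin tag, and both groups carried this transgene. The cells grew adherent in high-glucose medium with serum, G418 and puromycin. The 3 samples of the Cr group were given 5 mM creatine monohydrate in this medium for 3 h, and the 3 untreated controls were not. Each sample's RNA was hybridised to 1 Illumina Mouse WG-6 v2 array, and the comparison asks whether 3 h of Cr changed transcript levels in these cells. Whether the 3 samples of a group were separate cultures is not in the labels, and the p-values therefore rest on a spread that may be technical. In such bulk samples, fewer cells that express a gene and less of its RNA per cell cannot be told apart.

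The arrays differed little in detection and correlation, but more in scale. The relative scale fitted in normalisation was 0.892 for untreated replicate 1 and 1.19 for untreated replicate 3. Before normalisation, bright probes therefore tended to be lowest in untreated replicate 3, and raw signals given below are not corrected for this. Between 16396 and 17700 probes, and between 75 and 79 of the 87 Rab probes, were detected on each array, and arrays correlated with one another over the tested probes at 0.993 to 0.997. Untreated replicate 1 stood apart on the first principal component (37.4% of the variance), at -18.9 against -2.64 to 10.9 for the others. It was the array farthest from its group mean for 29 of the 87 Rab probes (33.3%) and for 27.8% of all tested probes. Of 14 fibroblast marker genes 11 were represented among the tested probes, with a summed signal of 48609 to 66700 in untreated and 57351 to 61656 in Cr samples, while Thy1, Lum and Dcn were not. Of the markers of other cell types, 4 of 10 neuronal, 4 of 10 epithelial, 3 of 11 blood cell and 3 of 7 melanocyte genes were represented, and no probe of any marker list had an unadjusted p of 0.05 or less.

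Most Rab probes that met the detection limit were detected on every array, while Rab probes undetected on all arrays could not be counted. Of the 87 probes, 71 (81.6%) were detected on all 6 arrays, against 73.8% of all tested probes, and 44 of the 51 genes had such a probe. The 7 genes without one were Rab2b, Rab30, Rab36, Rab27a, Rab27b, Rab3b and Rab3il1. Rab27a and Rab27b carry melanosomes and secretory granules to the cell periphery, and Rab3b acts in regulated secretion. For 8 probes a whole group was undetected. These were a Rab22a probe and the Rab2b probe in untreated cells, and single probes of Rab1b, Rab30, Rab11fip3, Rab3il1, Rab11b and Rab3b in Cr-treated cells, so that 79 probes of 48 genes were measured on both sides. Among others, no tested probe was named for Rab15, Rab17, Rab20, Rab25, Rab26, Rab33a, Rab37, Rab38, Rab3c or Rab9b. Several of these are known mainly from epithelia, neurons and pigment cells.

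After 3 h of Cr the Rab transcripts differed little from the untreated level. At an adjusted p of 0.05 or less (limma on normalised log2 signals, Benjamini-Hochberg over all 20308 probes), 0 of the 87 Rab probes were called, against 6 of all tested probes (0.0295%), and the lowest adjusted p of a Rab probe from limma was 0.371. The median log2 fold change (Cr minus untreated) was 0.0076 over the Rab probes, 0.010 over the 79 probes measured on both sides and 0.0014 over all tested probes. Of the 87 values 50 lay above 0 (57.5%, against 50.6% of all tested probes). The values spanned -0.20 to 0.36. Within 0.1 of 0 lay 63 of the 87 Rab probes and 14397 of all 20308 tested probes, which are similar shares. For 71 of the 87 probes (81.6%) the 95% confidence interval of the level with Cr lay between 80 and 125% of untreated. The same held for 79.7% of all tested probes. With the background inferred from the detection p-values instead (neqc), 33 Rab probes (37.9%) and 26.9% of all tested probes met this.

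At an unadjusted p of 0.05 or less, 5 Rab probes (5.75%) were higher with Cr, against 2.45% of all tested probes, and 0 were lower, against 2.6%. The 5 probes belonged to 4 genes, namely Rab7b with both of its probes, Rab3a, Rab22a and Rab11fip5. Of these 5, 4 were detected on all 6 arrays and the Rab22a probe on the Cr arrays only. The 4 were 5.63% of the 71 Rab probes detected on every array, against 2.55% of all such probes. The count was 2 without untreated replicate 3 and 3 without Cr replicate 2, where 1.72 and 1.92% of all tested probes were higher. Values of all Cr samples lay above all untreated samples for 12 probes (13.8%), against 5.59% of all tested probes, and below them for 4 (4.6%), against 5.15%. Among the 71 Rab probes detected on every array, 10 (14.1%) lay above without overlap, against 6.06% of the 14997 such probes, and 3 (4.23%) lay below, against 5.2%. The 12 probes were of Rab1a, Rab1b, Rab3a, Rab5a, Rab7b (both), Rab11fip5, Rab12, Rab22a, Rab32, Rab39b and Rab40c, and the 4 were of Rab5a, Rab8a, Rab11fip3 and Rab13.

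**Figure D1:**
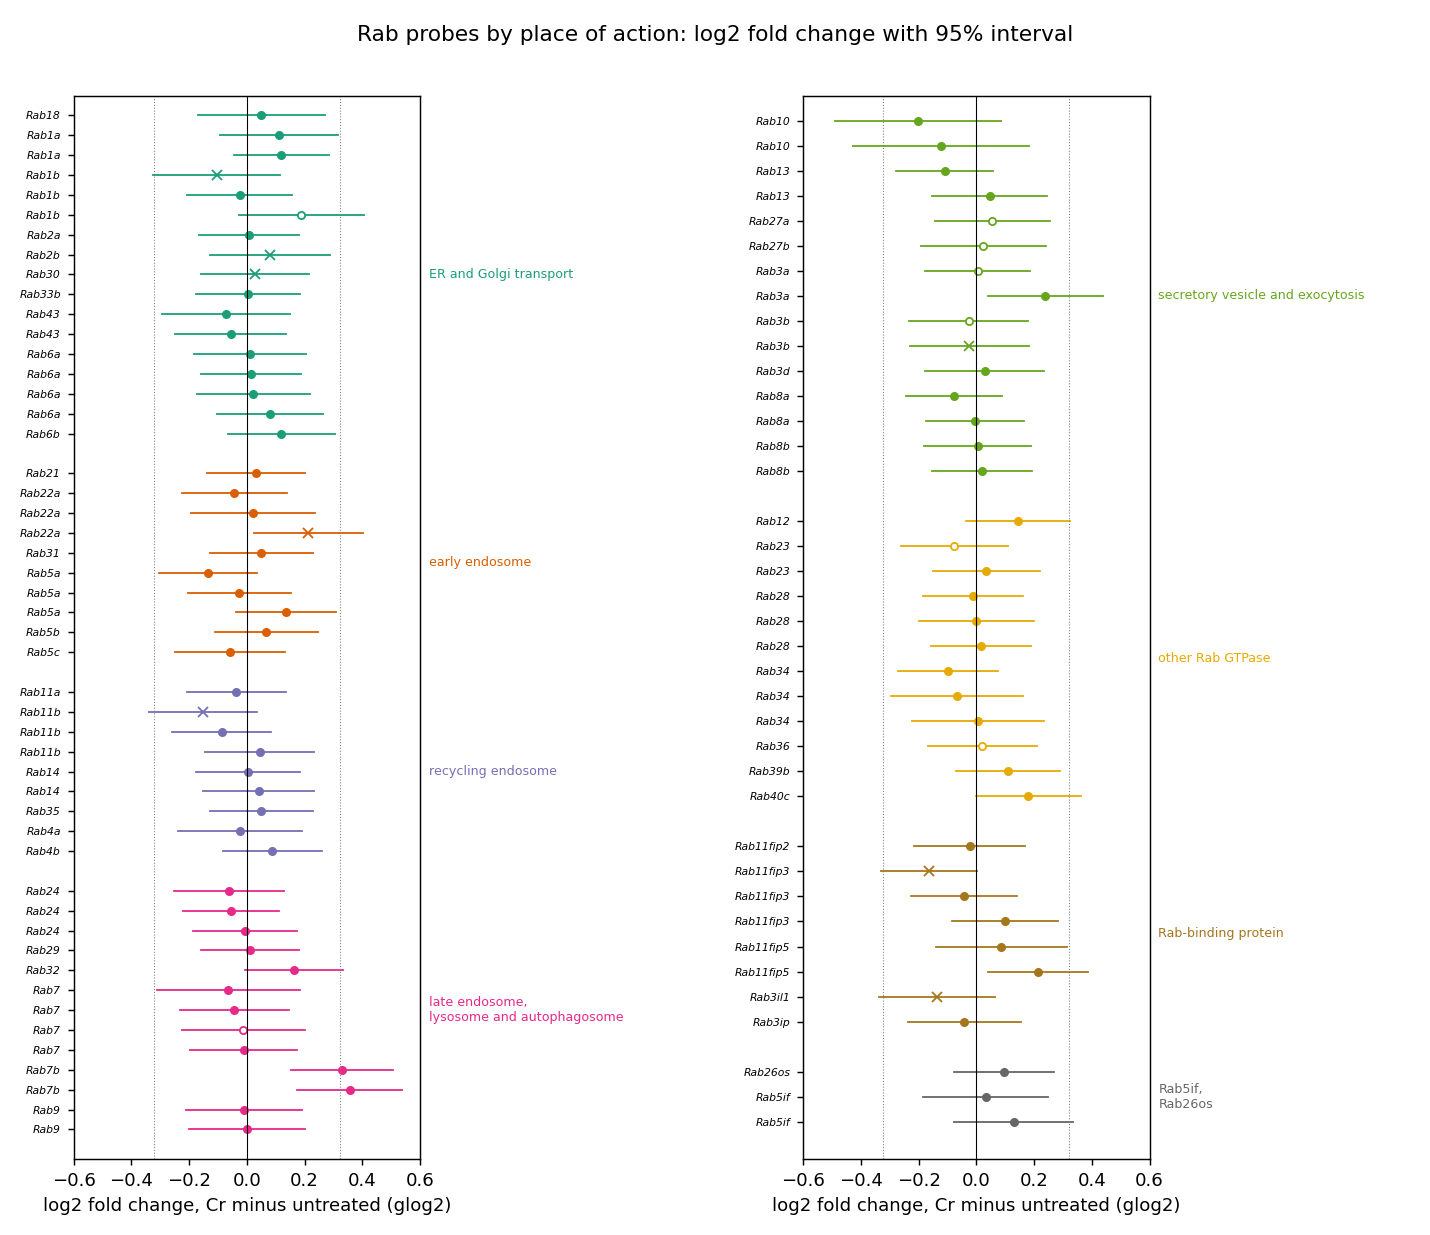
Log2 fold change (Cr minus untreated) of each of the 87 Rab probes with its 95% confidence interval, grouped by place of action; filled points were detected on all 6 arrays, open points on fewer, and crosses mark the 8 probes undetected throughout 1 group, whose plotted value is no measured fold. Dotted lines mark 80 and 125% of untreated. The 2 Rab7b probes, at 0.33 and 0.36, lie farthest from 0, and every other probe lies within 0.25 of it.

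Among the Rabs of late endosomes, lysosomes and autophagosomes, Rab7b had the largest difference of all 51 genes. Rab7b acts between late endosomes and the trans-Golgi network and is distinct from Rab7, which drives the maturation of endosomes towards lysosomes. One probe (ILMN_2769490) gave signals of 191, 201 and 185 in untreated replicates 1 to 3 and 235, 214 and 250 in the Cr samples, or 192 ± 8.27 against 233 ± 18.0 (mean ± SD, n = 3). The other (ILMN_2882088) gave 231, 238 and 204 untreated and 276, 264 and 265 with Cr, or 224 ± 17.8 against 268 ± 6.71 (mean ± SD, n = 3). On both probes every Cr sample lay above every untreated sample. Both probes were dim, since the median signal of all probes was 152 to 167 per array. The detection p of the first was 0.0096 to 0.019 in the untreated samples.

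Normalised, the first Rab7b probe was 0.36 higher with Cr on the log2 scale (SE 0.085), or 128% of untreated with a 95% interval of 113 to 145%, at an adjusted p of 0.371 from limma. The second was 0.33 higher (SE 0.082), or 126% of untreated with an interval of 111 to 142%, at an adjusted p of 0.436 from limma. By unadjusted p they ranked 47 and 58 among the 20308 probes. With neqc the first probe was 0.76 higher, the top of a range of 0.29 to 0.76 over 13 alternatives. The second was not rerun in this way. The adjusted p of the first from limma ranged from 0.206 to 0.9995 over 13 alternatives, the highest without Cr replicate 3.

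The other late endosomal and lysosomal Rabs were close to their untreated levels. The 4 probes of Rab7 had log2 fold changes of -0.06 to -0.01, the 2 of Rab9, which recycles receptors from late endosomes to the Golgi, -0.01 and 0.0009, and the 3 of Rab24, an autophagy-associated Rab, -0.06 to -0.01. Rab29, a partner of the kinase Lrrk2 at lysosomes and the Golgi, was at 0.01. Rab32, which serves lysosome-related organelles and mitochondria, gave signals of 3772, 3259 and 2864 untreated and 3470, 3809 and 4025 with Cr. Raw signals overlapped between the groups, and after normalisation they did not (11.70, 11.62 and 11.71 against 11.78, 11.85 and 11.89 on the log2 scale). The difference was 0.16 (SE 0.080, adjusted p = 0.985 from limma).

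**Figure D2:**
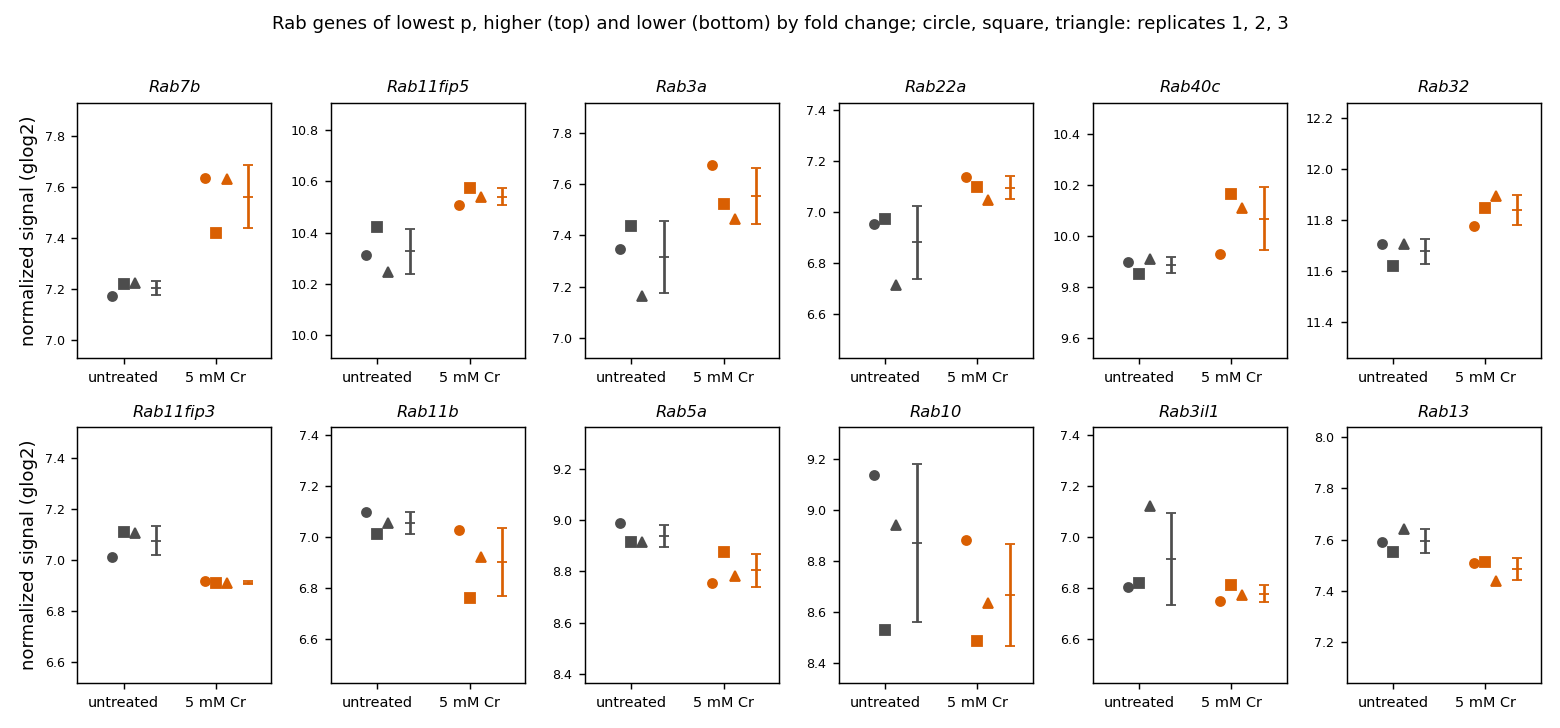
Normalised log2 signal of each array for the Rab genes of lowest unadjusted p among those higher (top) and lower (bottom) with Cr, with the mean and SD (n = 3) beside the points; each panel spans the same range of log2 units. Rab7b shows the largest gap, Rab10 the largest spread within a group, and Rab22a, Rab11fip3, Rab11b and Rab3il1 were undetected throughout 1 group.

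The Rabs of the ER and Golgi route lay close to their untreated levels. Rab1a and Rab1b work between the ER and the Golgi, Rab2a and Rab2b on the return path, and Rab6a and Rab6b within the Golgi. Over the 14 probes measured on both sides the median log2 fold change was 0.019 and the range -0.07 to 0.19. Both Rab1a probes were slightly higher with Cr, at 0.11 and 0.12, the second without overlap (10.24, 10.27 and 10.25 untreated, 10.38, 10.34 and 10.40 with Cr on the log2 scale). Neither of them passed, with adjusted p of 0.986 from limma on both.

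The 4 Rab6a probes lay at 0.01 to 0.08 and the Rab6b probe at 0.12. Rab2a, at 0.0076, was within 89.2 to 113% of untreated. Rab1b had probes at 0.19 and -0.02, and the first was detected on 5 of the 6 arrays. Rab18, which acts at the ER and lipid droplets, was at 0.05, Rab33b, a Golgi and autophagy Rab, at 0.0040 and the 2 probes of Rab43 at -0.07 and -0.06. The Rab2b and Rab30 probes were detected on 1 array each.

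Early endosomal Rabs had values of both signs. Rab5a, which with Rab5b and Rab5c governs the fusion of early endosomes and thereby the uptake of surface proteins, had 3 probes, all detected on all 6 arrays. On ILMN_1253400 the log2 signals were 8.99, 8.91 and 8.92 untreated and 8.75, 8.88 and 8.78 with Cr, a difference of -0.14 (SE 0.080) without overlap. On ILMN_2786763 they were 9.91, 9.76 and 9.91 untreated and 9.99, 9.98 and 10.02 with Cr, a difference of 0.13 (SE 0.081) without overlap. These Rab5a probes thus differed in opposite directions, both at an adjusted p of 0.986 from limma, and the remaining one was at -0.03.

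Rab5b was at 0.07 and Rab5c at -0.06, Rab21, which traffics integrins, at 0.03, and Rab31, of the route between Golgi and endosomes, at 0.05. Rab22a, which serves early endosomes and recycling, had 2 probes detected on all 6 arrays, at -0.04 and 0.02. Its remaining probe gave signals of 168, 177 and 146 untreated and 177, 178 and 179 with Cr. It was detected on the 3 Cr arrays, with detection p of 0.024 to 0.046, and on none of the untreated. It thus met the detection limit only through the Cr samples, and no fold is given.

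Through the recycling Rabs internalised carriers return to the surface. Of their 9 probes, 0 had an unadjusted p of 0.05 or less, against 5.04% of all tested probes. Likewise 0 lay without overlap, against 10.7%. With 9 probes, counts of 0 cannot be told from these shares. Rab4a and Rab4b act in fast recycling, Rab11a and Rab11b in slow recycling, Rab35 at the plasma membrane and Rab14 between endosomes and the Golgi. Over the 8 probes measured on both sides the median log2 fold change was 0.023 and the range -0.09 to 0.09. Each 95% interval lay between 80 and 125% of untreated, as did those of 79.7% of all tested probes. Rab11a was at 97.5% of untreated (95% interval 86.6 to 110%), Rab4a at 98.4% (84.8 to 114%) and Rab35 at 103% (91.4 to 117%).

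Rab14 had probes at 0.0048 and 0.04. The brightest Rab11b probe gave log2 signals of 13.15, 13.24 and 13.26 untreated and 13.20, 13.12 and 13.07 with Cr, which overlapped, at -0.09. Another was at 0.05. The remaining Rab11b probe was detected on 1 untreated array and no Cr array, with signals of 183, 180 and 170 against 166, 148 and 167, and no fold is given.

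Among the Rabs of secretory vesicles and exocytosis, Rab10 had the largest negative value. Rab10 carries vesicles from the Golgi and endosomes to the plasma membrane. Its 2 probes gave signals of 664, 428 and 473, and of 1487, 853 and 943, in untreated replicates 1 to 3. With Cr they gave 503, 407 and 459, and 974, 892 and 1136. Untreated replicate 1 was the highest sample on both, and the groups overlapped. The log2 fold changes were -0.20 (SE 0.13) and -0.12 (SE 0.14), with intervals of 71.2 to 106% and 74.3 to 113% of untreated. Without untreated replicate 1 the first was -0.07, and without untreated replicate 2 it was -0.37. The spread within groups put the Rab10 probes at percentiles 98.7 and 99.2 of all tested probes, while the median pooled SD was 0.0976 over Rab probes and 0.104 over all.

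Rab3a, which primes vesicles for regulated release, gave signals of 213, 226 and 179 untreated and 240, 227 and 227 with Cr on a probe detected on all arrays. Normalised, these did not overlap and were 0.24 higher with Cr (SE 0.093, adjusted p = 0.948 from limma), or 0.51 higher with neqc. A second Rab3a probe, detected on 2 arrays, was at 0.0050. Rab8a, which directs Golgi-derived vesicles to the surface, had probes at -0.08 and -0.0040, the first of them below the untreated samples without overlap (11.84, 11.91 and 11.83 against 11.79, 11.80 and 11.76). The 2 probes of its relative Rab8b were at 0.0041 and 0.02, and Rab3d was at 0.03.

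Rab13, which delivers proteins to cell junctions and the surface, gave signals of 247, 241 and 228 untreated and 218, 226 and 223 with Cr on 1 probe. All 3 Cr values were the lower, at -0.11 on the log2 scale (SE 0.079, adjusted p = 0.986 from limma), or -0.20 with neqc. The other Rab13 probe was at 0.05, with overlap.

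Of the remaining GTPases, Rab40c, which works with a ubiquitin ligase, was the highest, at 0.18 (SE 0.085, adjusted p = 0.985 from limma). Its log2 signals of 9.90, 9.85 and 9.91 untreated and 9.93, 10.17 and 10.11 with Cr did not overlap, and Cr replicate 1 lay close to the untreated samples. Rab12, which sends receptors from recycling endosomes to lysosomes, was at 0.15 and Rab39b, known from neurons, at 0.11, both without overlap. Rab34, of Golgi, lysosome positioning and cilia, had probes at -0.10, -0.07 and 0.01. Rab23, which restrains Hedgehog signalling, was at -0.08 and 0.03, and the 3 probes of Rab28, a ciliary Rab, lay between -0.01 and 0.02.

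Rab11fip5, an effector that links Rab11 to recycling vesicles, had 1 probe with signals of 1459, 1450 and 1081 untreated and 1465, 1603 and 1603 with Cr. Every Cr sample was the higher, and the normalised difference was 0.21 (SE 0.081, 116% of untreated, 95% interval 103 to 131%, adjusted p = 0.948 from limma). Its other probe was at 0.09, with overlap. Rab11fip3, an effector at recycling endosomes and in cell division, had 2 probes detected on all arrays, at -0.04 and 0.10. The remaining probe gave signals of 174, 190 and 174 untreated and 157, 160 and 166 with Cr. That Rab11fip3 probe was detected on 1 untreated array and on no Cr array, and no fold is given.

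Rab3il1, an exchange factor for Rab8, was detected on 1 untreated array, with signals of 153, 163 and 176 against 143, 152 and 154, and no fold is given. Rab11fip2 was at -0.02 and Rab3ip, also an exchange factor for Rab8, at -0.04. Rab5if had probes at 0.03 and 0.13 and Rab26os, a transcript of the strand opposite Rab26, was at 0.10.

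Where a gene had more than 1 probe measured on both sides, its probes were compared, and other genes had no such check. Of the 23 genes with more than 1 probe measured on both sides (54 probes), 13 had values of a single sign and 10 of both signs. The median range between probes of a gene was 0.074 on the log2 scale. In 3 genes the range was 0.2 or more, at 0.27 for Rab5a, 0.23 for Rab3a and 0.21 for Rab1b. For Rab7b it was 0.03. Probes of a gene share its 6 samples and are no replicates.

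**Figure D3:**
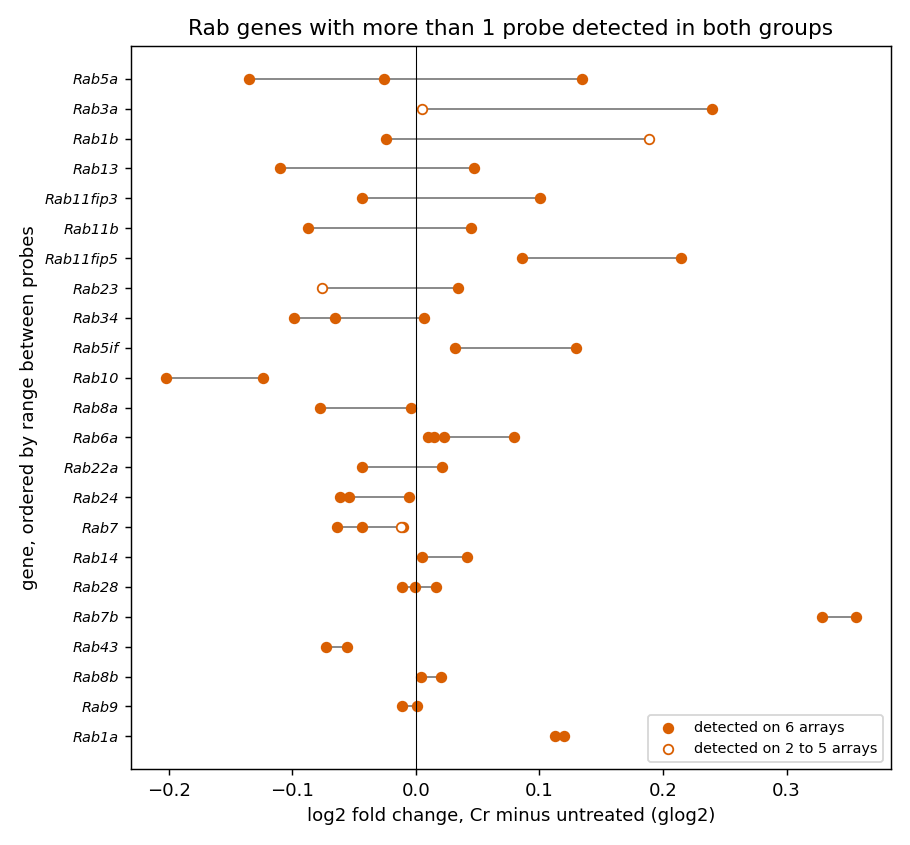
Log2 fold change (Cr minus untreated) of each probe, for the 23 Rab genes with more than 1 probe measured in both groups, ordered by the range between probes; filled points were detected on 6 arrays and open points on fewer. The probes of Rab7b lie together at 0.33 and 0.36, whereas those of Rab5a lie on both sides of 0.

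The machinery that controls Rabs had no called probe either. Of 2 dissociation inhibitor and escort genes tested (3 probes), 2 of Chm, an escort protein, were at 0.14 and 0.05, and Gdi2, a dissociation inhibitor, was at 0.25 (unadjusted p 0.028), with overlap. The geranylgeranyl transferase and a prenyl acceptor, Rabac1, were represented by 3 genes (5 probes). Of these, Rabggtb, a subunit of the transferase, had probes at -0.21 (unadjusted p 0.0266 from limma), without overlap, and at -0.0091. Exchange factors had 75 probes of 43 genes and a median of 0.016, with 1 probe higher and 1 lower at an unadjusted p of 0.05 or less (1.33% each, against 2.45% and 2.6% of all tested probes). These were a probe of Trappc9, detected on 2 arrays, and a probe of Trappc6b at -0.20, both of the TRAPP complexes. This Trappc9 probe was near background, with mean signals of 154 untreated and 172 with Cr. It may have met the detection limit through the Cr samples only, and no fold is given. The other Trappc9 probe, detected on 6 arrays, was at 0.11. Another Trappc6b probe, detected on 6 arrays, was at -0.0002. A further Trappc6b probe was detected on 1 array, and no fold is given.

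GTPase-activating proteins had 47 probes of 30 genes and a median of 0.0057. At an unadjusted p of 0.05 or less 1 of the 47 was higher (against 2.45% of all tested probes) and 3 were lower (6.38%, against 2.6%). The higher one was of Evi5l, at 0.24, and the lower were both probes of Tbc1d10a, at -0.25 and -0.21, and 1 of Rabgap1l, at -0.25. Another Rabgap1l probe, detected on 3 arrays, was at -0.07. A further Rabgap1l probe was detected on 1 array, and no fold is given. TBC1D10A is known to act on Rab35 and Rab27a. Effectors had 72 probes of 43 genes and a median of -0.0090, with 4 probes higher (5.56%, against 2.45% of all tested probes) and 0 lower (against 2.6%). Rufy2 was at 0.30 (adjusted p = 0.761 from limma) and Fyco1, an adaptor that couples Rab7 on late endosomes and autophagosomes to kinesin, at 0.26 (adjusted p = 0.903 from limma). The other effectors were a probe of Gorasp2 at 0.24, of which 3 others lay between -0.06 and 0.05, and one of Rilpl2 at 0.21. A brighter Rilpl2 probe was at 0.05.

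**Figure D4:**
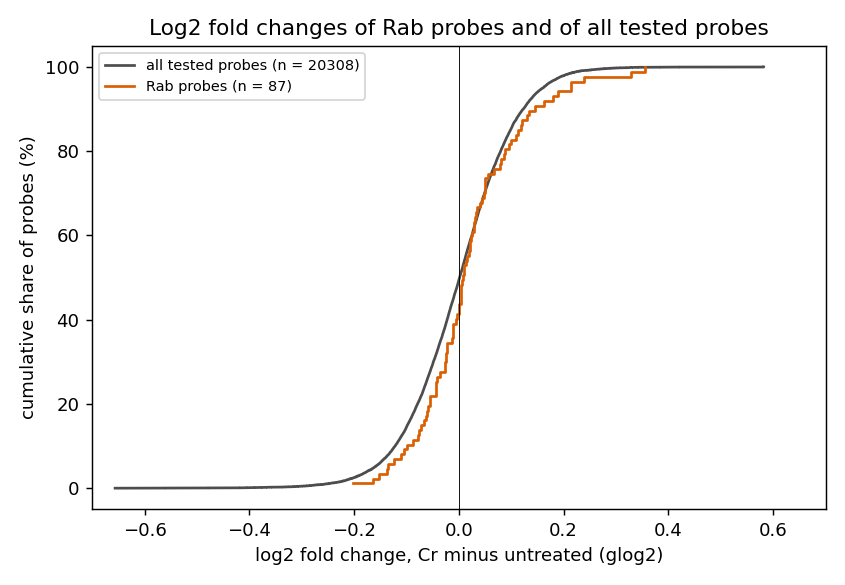
Cumulative share of probes (%) by log2 fold change (Cr minus untreated) for the 87 Rab probes and for all 20308 tested probes. The curves cross 50% close to 0, at medians of 0.0076 and 0.0014, and the Rab values reach from -0.20 to 0.36 while those of all probes reach from -0.66 to 0.58.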

How the data were processed

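The deposited table gives, per probe, the signal intensity as the authors took it from GenomeStudio 1.0.6 (background left in) together with a detection p-value against the array's negative controls. The deposited processed values, on a generalized log2 scale, were made by the authors with background correction and vsn, and served as an alternative. From the signals, the vsn model (per array an offset and a scale inside an asinh, least trimmed squares at a quantile of 0.9) was fitted in R 4.3.3. Probes detected on 1 or more arrays (detection p no higher than 0.05) entered the test of limma 3.58.1 (lmFit, eBayes, two-sided, 3 against 3 samples, no covariate, Benjamini-Hochberg), and 95% intervals come from the same fit. Simulated data were used to test the script. Precision is limited by 6 arrays.

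Probes were named from the platform annotation (16925 of the tested probes with 1 symbol, 7 with several, 3376 unnamed), and all 87 Rab IDs matched RefSeq genes of GRCm38.p6. The annotation used here covers tested probes only, 3 probes of Rab3gap1 and Rab3gap2 were left out by the symbol rule, and cross-hybridisation between related Rabs was not checked. Per-array values are given for 6 genes per direction, those with the lowest unadjusted p, and for further probes named because their groups did not overlap. Members, roles, pathway lists and markers were chosen with earlier results of these data known. Alternatives were other background corrections and normalisations (neqc, normexp), filters, variance models, array weights, a replicate block, 1 probe per gene and each array left out. Figures were drawn with matplotlib 3.10.9.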

Additional observations from a re-analysis of the deposited data

How the results depend on the processing

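No Rab probe was called at an adjusted p of 0.05 or less under any of 17 alternatives. The lowest adjusted p of a Rab probe from limma lay between 0.206 and 0.988. The 12 named probes kept their direction in all 13 settings run for each, but they were picked by p on these same arrays. Keeping direction is therefore no independent check. The named probes of Rab22a, Rab11fip3, Rab11b and Rab3il1 were also undetected throughout a group, so no direction is read for them. The count of probes higher at an unadjusted p of 0.05 or less, 5 as reported, was 8 with array weights, 2 with 1 probe per gene, and 2 to 6 with an array left out. Of all tested probes, 3.65%, 2.58% and 1.72 to 3.63% were higher in these settings. The count of lower probes, 0 as reported, was 1 with neqc, 1 with normexp, 2 with array weights, 1 with a replicate block, and 0 to 2 with an array left out (2 without untreated replicate 1 or 2). Of all tested probes, 2.76%, 2.91%, 3.27%, 3.6% and 1.84 to 3.84% were lower in these settings. Probes without overlap, 16 as reported, were 8 of 51 (15.7%) with 1 probe per gene, against 11.1% of all tested probes in that setting. With an array left out they were 18 to 26, the highest without untreated replicate 1 or 2 (18.3 to 23.2% of all tested probes, against 10.7% with all arrays), since fewer samples overlap less. The median log2 fold change, 0.0076 as reported, was -0.0018 to 0.0225 with an array left out, the highest without untreated replicate 1. Intervals between 80 and 125% of untreated, 71 as reported, were 33 with neqc (37.9%, against 26.9% of all tested probes). With 1 probe per gene they were 43 of 51 (84.3%, against 80.1% of all tested probes in that setting). Same-numbered samples deviated together at r = 0.24, 0.312 and -0.0306, and differently numbered ones at -0.355 to 0.147. So few values cannot settle whether the numbers pair the samples, and the main fit used no pairing. The replicate block gave 14 called probes in all against 6, none of a Rab. With 3 samples a group, an exact permutation test of a single probe could not go below p = 0.1. Other causes of these shifts were not tested. Folds of probes near background are the least certain.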
